A study of Homo sapiens with 9 samples.

Results

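Amino acid transporters are the subject here: 9 solute carrier genes, SLC7A1, SLC7A5, SLC7A6, SLC7A11, SLC3A2, SLC1A4, SLC1A5, SLC38A1 and SLC38A2. They were taken by symbol from a deposited table of 60448 genes, where each matched 1 Ensembl identifier, and all 9 were among the 15019 genes that passed the filter on low counts and were tested. The data are RNA sequencing counts of 9 libraries from cells labelled Huh7, the name of a line from a human liver cancer, cultured in DMEM. N_30 (3 libraries) and N_28 (3 libraries) are labelled as OPA1 knock-downs, and they are set against a group labelled control (3 libraries). The treatment text of every library, control included, names lentivirus, and the labels do not say what N_30 and N_28 stand for or whether a control vector was used. Whether each library came from its own culture is not stated either, so the p-values below rest on a spread between libraries that may be technical.

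Cells take up most amino acids through carriers of a few solute carrier families. SLC3A2, the CD98 heavy chain, carries no substrate itself: it pairs at the plasma membrane with light chains of the SLC7 family, among them SLC7A5 (LAT1, which exchanges large neutral amino acids such as leucine), SLC7A6 (which exchanges arginine or lysine for neutral amino acids) and SLC7A11 (xCT, which exchanges cystine for glutamate). SLC7A1 carries arginine and lysine without a heavy chain, SLC1A5 and SLC1A4 exchange small neutral amino acids such as glutamine, serine and alanine, and SLC38A1 and SLC38A2 bring in glutamine and alanine together with sodium. Several of these genes are textbook targets of ATF4, the transcription factor of the amino acid and stress response.

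Promoter windows are shown for the 4 genes that the comparisons turn on: the pair SLC7A5 and SLC3A2, whose levels moved most alike, and SLC7A1 and SLC7A6, which were called in N_28. Each holds 250 bases before and 20 bases from the annotated start (RefSeq, GRCh38.p14), written 5′ to 3′ on the strand of the gene. Capitals mark matches, on either strand, to 3 motifs: TGATGNAA (the core of the C/EBP-ATF element), CACGTG (the E-box) and TGACNNNGC (the core of the antioxidant response element). The windows are chr16:87869488-87869757 (minus strand) for SLC7A5, chr11:62881449-62881718 (plus strand) for SLC3A2, chr16:68264276-68264545 (plus strand) for SLC7A6 and chr13:29595669-29595938 (minus strand) for SLC7A1.
SLC7A5: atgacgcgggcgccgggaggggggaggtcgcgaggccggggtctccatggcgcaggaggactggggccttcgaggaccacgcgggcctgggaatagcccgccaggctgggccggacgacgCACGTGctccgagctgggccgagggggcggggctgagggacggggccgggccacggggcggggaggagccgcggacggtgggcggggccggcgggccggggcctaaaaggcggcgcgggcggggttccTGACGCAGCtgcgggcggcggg
SLC3A2: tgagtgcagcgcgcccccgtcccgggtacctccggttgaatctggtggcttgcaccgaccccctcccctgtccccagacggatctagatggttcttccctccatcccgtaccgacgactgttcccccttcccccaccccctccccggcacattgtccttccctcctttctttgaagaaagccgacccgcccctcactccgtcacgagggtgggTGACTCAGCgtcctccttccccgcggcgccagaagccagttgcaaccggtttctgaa
SLC7A6: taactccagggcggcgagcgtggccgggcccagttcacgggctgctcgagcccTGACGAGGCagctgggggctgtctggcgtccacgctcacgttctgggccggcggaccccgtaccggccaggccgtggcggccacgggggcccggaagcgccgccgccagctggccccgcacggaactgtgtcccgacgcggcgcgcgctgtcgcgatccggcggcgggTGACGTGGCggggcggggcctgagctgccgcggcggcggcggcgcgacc
SLC7A1: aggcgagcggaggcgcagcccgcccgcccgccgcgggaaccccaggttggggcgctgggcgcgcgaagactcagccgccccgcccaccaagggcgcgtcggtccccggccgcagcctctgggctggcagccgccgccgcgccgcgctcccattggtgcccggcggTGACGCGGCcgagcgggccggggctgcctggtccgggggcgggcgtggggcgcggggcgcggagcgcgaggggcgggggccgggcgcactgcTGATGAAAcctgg

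SLC7A5 holds a CACGTG at position -130 and a TGACNNNGC match at -2, where the base before the start is -1 and the start is 1. In SLC3A2, whose table entry has 3 windows, only the window shown holds a match, TGACTCAGC at -37. SLC7A6 has TGACNNNGC matches at -197 and -29, and SLC7A1 has a match to that motif at -85 and TGATGAAA at position 8. Over the 14 windows of the 8 genes with an entry (there is none for SLC7A11), 4 held TGATGNAA, 2 held CACGTG and 5 held TGACNNNGC. Among all 35116 windows of this length the shares were 3.37%, 6.78% and 12.0%, in the same order. These matches describe letters in a window, and binding was not measured.

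Total counts ran from 16476389 to 22863328 per library. OPA1 averaged 64.5 ± 1.30 CPM (counts relative to the library size, scaled by trimmed mean of M values) in N_30 and 55.6 ± 2.25 CPM in N_28, against 88.7 ± 5.28 CPM in control libraries (SD, n = 3 each), so its transcript was lower in each of the knock-down libraries than in each control library. By the edgeR fit described below, its log2 change against control was -0.46 in N_30 (adjusted p = 0.00221) and -0.68 in N_28 (adjusted p = 1.38e-05). OPA1 was also higher in N_30 than in N_28 (0.21, adjusted p = 0.0265). The part of this difference in the transporter results was not tested. The cells went against their label for defining liver markers: APOB had 0 counts in all libraries, ALB at most 10 and HNF4A at most 4 per library, while VIM, the intermediate filament gene of mesenchymal cells, averaged 1447 CPM in N_30, 1420 CPM in N_28 and 1493 CPM in control. The 8 hepatocyte markers summed to 5.28 to 10.1 CPM in N_30, 1.49 to 2.01 CPM in N_28 and 4.70 to 7.68 CPM in control. They are therefore called cells labelled Huh7. Summed markers of mesenchymal and epithelial cells were lowest in N_28. The 6 fibroblast and mesenchymal markers summed to 2323 to 2450 CPM in N_30, 2098 to 2197 CPM in N_28 and 2303 to 2414 CPM in control, with CDH2 at 154 CPM in N_30, 66.5 CPM in N_28 and 148 CPM in control and PDGFRB at most 7 counts in a library. The 4 epithelial markers summed to 569.9 to 602 CPM in N_30, 386 to 430.4 CPM in N_28 and 469 to 543 CPM in control, nearly all of it KRT8 and KRT18, with EPCAM at most 6 counts. Not every marker was lowest in N_28. COL3A1 averaged 4.88 CPM in N_30, 3.69 CPM in N_28 and 3.27 CPM in control. CDH1 averaged 1.31, 1.97 and 1.72 CPM and EPCAM 0.0335, 0.205 and 0.0646 CPM, in the same order of groups. The part of these differences in the transporter results was not tested. Library 3 of each group stood apart on the second principal component (13.9% of variance), at scores of 10.9 to 19.1 against at most 2.85 for the other 6 libraries, and calls that are lost without it are given with and without it.

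All 9 transporters were expressed, and they differed widely in level. Per exonic length, as RPKM (CPM divided by the exonic length in kilobases), SLC7A5 was highest in control libraries at 315 ± 22.4 RPKM. It was followed by SLC1A5 (102 ± 8.60), SLC3A2 (86.2 ± 5.39), SLC38A2 (60.2 ± 1.96) and SLC38A1 (36.1 ± 2.29 RPKM). SLC7A1 stood at 20.7 ± 1.61, SLC1A4 at 11.7 ± 1.45, SLC7A6 at 9.81 ± 0.476 and SLC7A11 at 3.81 ± 1.39 RPKM (SD, n = 3 throughout). Neighbours in this order differed beyond their SDs, except SLC1A4 and SLC7A6, whose ranges met. Measured over the longest annotated transcript, SLC3A2 stood above SLC1A5, at 201 ± 12.6 against 118 ± 9.95 RPKM (n = 3 each); the merged exons of SLC3A2 cover 5178 bases and its longest transcript 2222. A list of 42 further amino acid transporter genes held 20 that were tested, and none of the other 22 had more than 11 counts in a library. The 9 genes held 85.6 to 86.0% of the counts of all 51 listed transporter genes in N_30, 85.8 to 87.5% in N_28 and 84.3 to 86.3% in control.

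**Figure D1:**
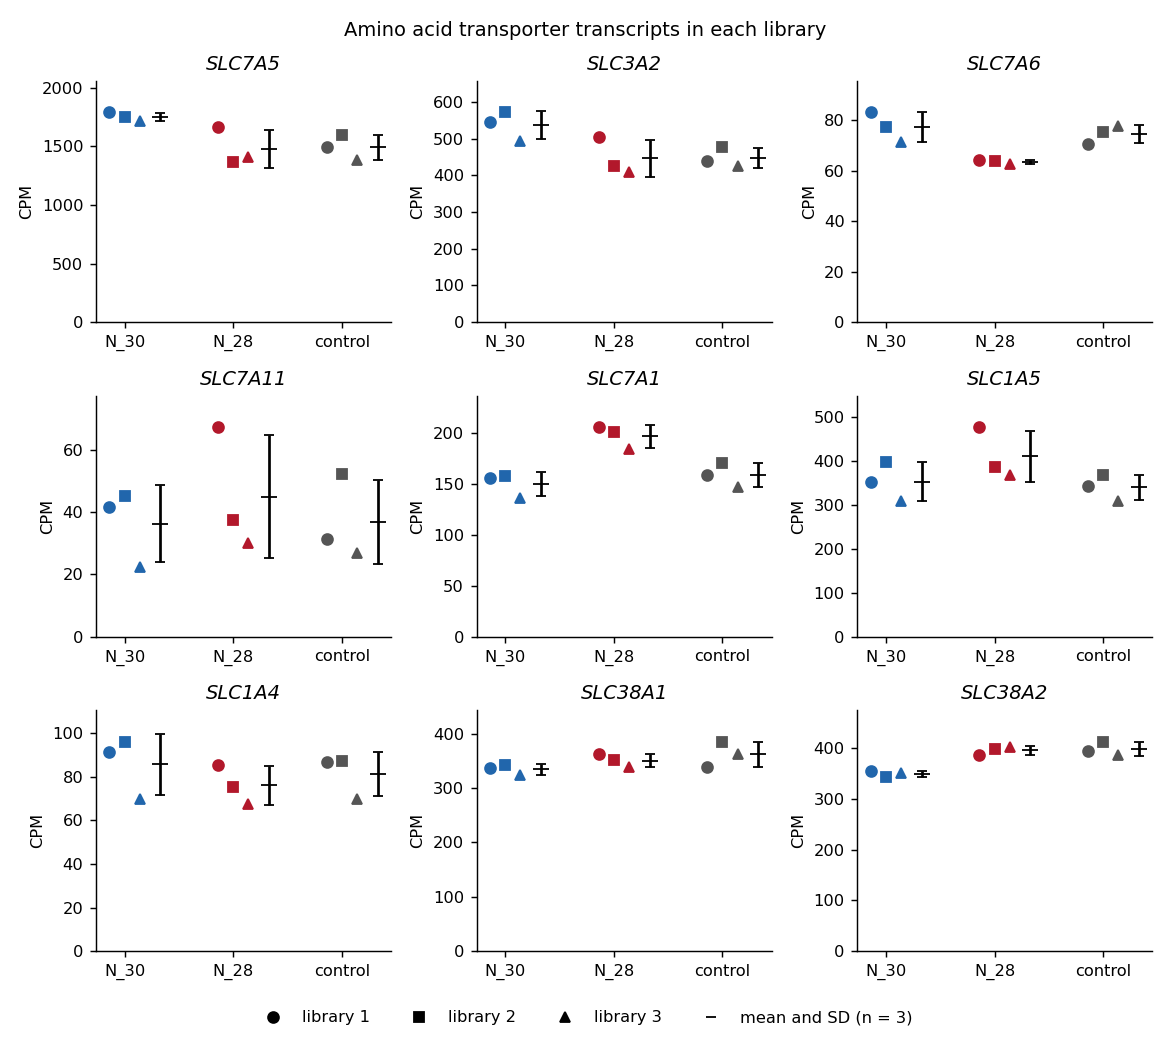
Level of each of the 9 transporter genes in CPM (vertical axes from 0) in each library, grouped as N_30, N_28 and control, with symbols for library number and the mean and SD of 3 libraries beside them. SLC7A5 and SLC38A2 in N_30 do not overlap the other groups, SLC7A1 and SLC7A6 in N_28 do not overlap the other groups, and SLC7A11 spreads from 22.2 to 67.2 CPM.

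In N_30 the heavy chain SLC3A2 and its main light chain SLC7A5 were higher than in N_28, while the arginine and lysine carrier SLC7A1 and the glutamine carrier SLC38A2 were lower and the light chain SLC7A6 was higher. In N_28 against control, SLC7A1 rose and SLC7A6 fell. No transporter passed in N_30 against control in the 3-group fit. The changes were small, from 0.762-fold to 1.24-fold among those that passed. In bulk libraries, a change in RNA per cell and a change in the share of cells that express a gene cannot be told apart.

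With edgeR (quasi-likelihood F test, p-values adjusted over 15019 genes by Benjamini-Hochberg, threshold 0.05), 5 of 9 transporters passed in N_30 against N_28, where 18.3% of all tested genes passed. Of these, 3 were higher (9.38% of all genes) and 2 lower (8.96%). In N_28 against control, 2 of 9 passed, against 10.2% of all genes, with 1 higher (4.49%) and 1 lower (5.75%). In N_30 against control, 0 of 9 passed, against 0.866% of all genes (0.459% higher and 0.406% lower). In that last comparison 3 of 9 had an unadjusted p under 0.05, DESeq2's Wald test called 1 (SLC38A2, adjusted p = 0.0404), and the fit with library number as a block called 1 (SLC3A2), with 424 of all genes called in place of 130. When the knock-downs were averaged and set against control, 0 of 9 passed with edgeR or DESeq2 and 1 had an unadjusted p under 0.05 (SLC38A2), against 1.78% of all genes called by edgeR (0.533% higher and 1.25% lower). The libraries of the groups did not overlap for 4 of 9 transporters in N_30 against N_28 (36.4% of all genes), for 3 in N_30 against control (15.2%) and for 3 in N_28 against control (28.7%). N_30 and N_28 share their control libraries, so the comparisons against control are given side by side and not as independent of each other.

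**Figure D2:**
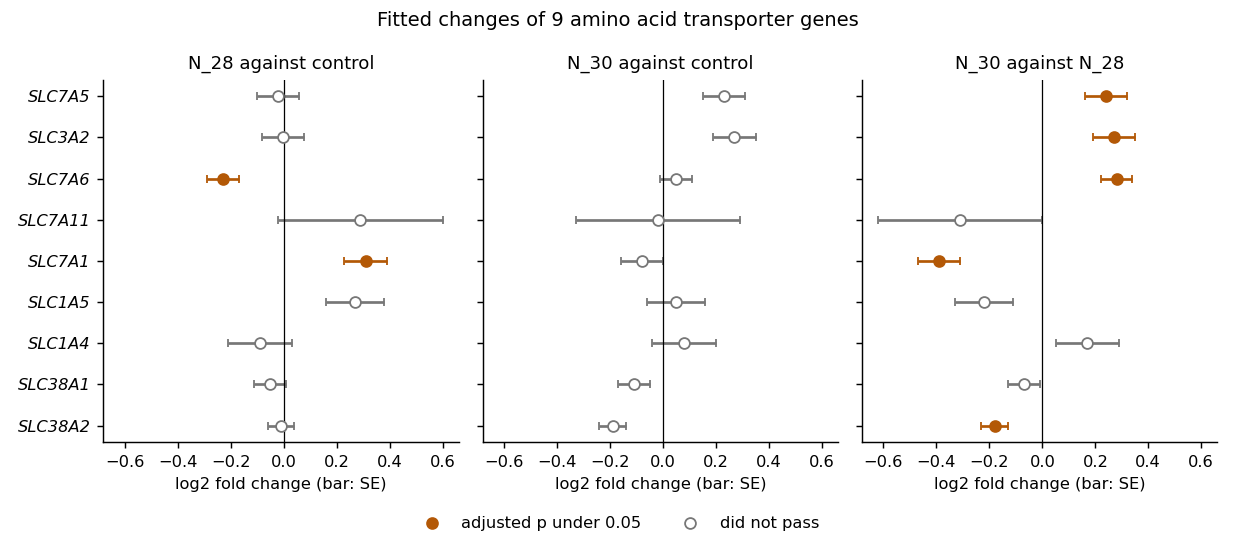
Log2 fold change (horizontal axes) of the 9 transporter genes in 3 comparisons, with bars of 1 SE; filled points have an adjusted p under 0.05. In N_30 against N_28, 5 genes pass, in N_28 against control SLC7A1 and SLC7A6 pass, and in N_30 against control 0 pass, with SLC3A2 at 0.27 and SLC38A2 at -0.19.

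SLC3A2 (ENSG00000168003, chromosome 11, 62856102 to 62888875, plus strand; coordinates of this and the next genes are from GENCODE 29, GRCh38) had 546, 571 and 494 CPM in N_30 libraries 1 to 3. The N_28 libraries had 504, 425 and 408 CPM, and the control libraries 438, 478 and 424 CPM. Each N_30 library lay above each control library, and N_28 overlapped both other groups. In edgeR, N_30 exceeded N_28 by 0.27 on the log2 scale (SE 0.08, adjusted p = 0.0361) and control by 0.27 (SE 0.08, adjusted p = 0.185). Deviations of same-numbered libraries in N_30 and control correlated at 0.122 to 0.306. With number as a block over all 9 libraries, N_28 included, the difference of N_30 from control had an adjusted p = 0.0301. Within numbers 1 to 3, N_30 exceeded control by 0.32, 0.26 and 0.22 on the log2 scale. With library 3 left out, the difference between N_30 and N_28 was also 0.27 but had an adjusted p = 0.0534.

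SLC7A5 (ENSG00000103257, chromosome 16, 87830023 to 87869488, minus strand) showed the same order. It had 1789.6, 1749 and 1716 CPM in N_30 libraries, 1662, 1364 and 1409.6 CPM in N_28 libraries and 1495, 1601 and 1388 CPM in control libraries. All 3 N_30 libraries lay above the other 6, and N_28 overlapped control. In edgeR, N_30 against N_28 gave a log2 fold change of 0.24 (SE 0.08, adjusted p = 0.0403) and N_30 against control one of 0.23 (SE 0.08, adjusted p = 0.234). Without library 3 the difference between N_30 and N_28 was 0.23, with an adjusted p = 0.119. Leaving out N_28 library 2 or 3, or N_30 library 1 or 2, also ended the calls of SLC7A5 and SLC3A2 in N_30 against N_28. A pseudogene, SLC7A5P1, had 53 to 87 counts in a library, against 24822 to 38533 for SLC7A5, and the rule for reads that match both is not given here.

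The per-length ratio of SLC7A5 to SLC3A2 within a library differed between groups by less than the spread between libraries. On the log2 scale it averaged 1.83 ± 0.09 in N_30, 1.86 ± 0.05 in N_28 and 1.87 ± 0.03 in control (SD, n = 3 each). The differences of N_30 from control (-0.04, exact two-sided permutation p = 0.6) and of N_28 from control (-0.01, exact p = 0.8) were within the spread, and 3 libraries against 3 cannot give a p below 0.1. Over the longest transcripts the control ratio was 0.71, so its size depends on the length used for SLC3A2. Among 10680 genes of at least 5 CPM on average, the gene whose centred log2 CPM over the 9 libraries was closest to that of SLC7A5 was SLC3A2, with a root mean square difference of 0.0536, where the spread of SLC7A5 about its own mean was 0.144. EIF3C, a subunit of a translation initiation factor, came next at 0.0581 and the RNA helicase gene DDX49 at 0.0593. Seen from SLC3A2, the tetraspanin CD63 (0.0494), GNPTAB (0.0509), which tags lysosomal enzymes, and HPS3 (0.0530), which acts in lysosome-related organelles, were closer, and SLC7A5 ranked 4. The 9 points share their libraries and scaling, and these distances are descriptions.

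**Figure D3:**
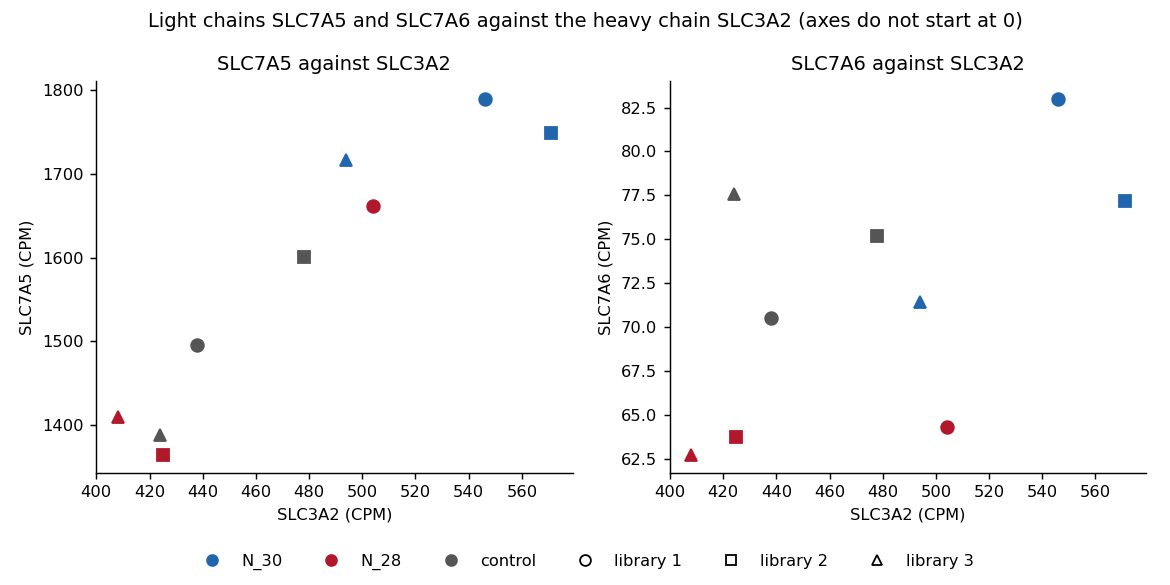
Level of the light chains SLC7A5 (left) and SLC7A6 (right) against the heavy chain SLC3A2, all in CPM, with a point for each library; the axes do not start at 0. SLC7A5 is at or above 1716 CPM and SLC3A2 at or above 494 CPM in all 3 N_30 libraries, and SLC7A6 is at or below 64.3 CPM in all 3 N_28 libraries whatever the level of SLC3A2.

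SLC7A6 (ENSG00000103064, chromosome 16, 68264516 to 68301823, plus strand) was the transporter that fell in N_28. It had 83.0, 77.2 and 71.4 CPM in N_30 libraries, 64.3, 63.7 and 62.7 CPM in N_28 libraries and 70.5, 75.2 and 77.6 CPM in control libraries. The N_28 libraries lay below all 6 others, while N_30 and control overlapped. The coefficient of variation in N_28 was 1.31%, which is less than the counting error expected at its 1159 to 1436 counts. In edgeR, N_30 against N_28 gave a log2 fold change of 0.28 (SE 0.06, adjusted p = 0.00881), N_28 against control one of -0.23 (SE 0.06, adjusted p = 0.0394) and N_30 against control one of 0.05 (SE 0.06, adjusted p = 0.835). The call in N_30 against N_28 held in all 17 alternatives run, at log2 changes of 0.23 to 0.33. The fall against control lost its call without library 3 (log2 change -0.19, adjusted p = 0.175) and when N_28 library 1, 2 or 3, N_30 library 2 or control library 2 or 3 was left out. SLC7A6 shares 3371 exon bases with SLC7A6OS on the other strand, which had 229 to 343 counts in a library, and without a stated strand setting reads of the overlap cannot be told apart.

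Relative to the heavy chain, SLC7A6 was lower in each knock-down library than in each control library. Its per-length log2 ratio to SLC3A2 averaged -3.35 ± 0.08 in N_30 and -3.35 ± 0.14 in N_28, against -3.13 ± 0.12 in control (SD, n = 3 each). Each difference from control was -0.22, with an exact two-sided permutation p = 0.1, the smallest this design allows. Both differences use the same control libraries, and the p-values are not adjusted for the number of ratios compared. The margin was narrow, with N_28 library 3 at -3.25 and control library 2 at -3.22. The parts of this shift in the ratio differed between the knock-downs. Against control, the log2 change in N_30 was 0.05 for SLC7A6 and 0.27 for SLC3A2. In N_28 it was -0.23 for SLC7A6 and -0.0025 for SLC3A2. The tested genes closest to SLC7A6 over the 9 libraries were the tropomyosin TPM4 (root mean square log2 difference 0.0403), ENSG00000230733, which has no symbol in the table used, (0.0412) and ATF6 (0.0414), a transcription factor of the endoplasmic reticulum stress response.

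SLC7A11 (ENSG00000151012, chromosome 4, 138164097 to 138242349, minus strand), the cystine carrier, varied more between libraries of a group than between groups. It had 41.6, 45.0 and 22.2 CPM in N_30 libraries, 67.2, 37.3 and 30.2 CPM in N_28 libraries and 31.3, 52.1 and 26.9 CPM in control libraries. All groups overlapped, and the coefficient of variation was 33.9% in N_30, 43.8% in N_28 and 36.6% in control. In edgeR, N_30 against N_28 gave a log2 fold change of -0.31 (SE 0.31, adjusted p = 0.532), N_30 against control one of -0.02 (SE 0.31, adjusted p = 0.988) and N_28 against control one of 0.29 (SE 0.31, adjusted p = 0.626). N_28 library 1 set the sign of the last: without it the log2 change was -0.13. At this spread, a change of the size seen in the other transporters was not detectable in the edgeR fit of the filtered genes. With no filter on low counts, edgeR called SLC7A11 in N_28 against control (adjusted p = 0.00941) and in N_30 against N_28 (adjusted p = 0.00226). The filter keeps SLC7A11, so its 499 to 1396 counts per library and the overlap of the groups were the same in that fit. That fit also called more of all genes in N_30 against control, as given below. What brought these calls was not tested. SLC7A11-AS1, which overlaps it on the other strand, had at most 10 counts in a library.

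SLC7A1 (ENSG00000139514, chromosome 13, 29509410 to 29595688, minus strand), the carrier of arginine and lysine, rose in N_28. It had 156, 158 and 136 CPM in N_30 libraries, 206, 201 and 184 CPM in N_28 libraries and 159, 171 and 147 CPM in control libraries. All 3 N_28 libraries lay above the other 6, and N_30 overlapped control. In edgeR, N_30 against N_28 gave a log2 fold change of -0.39 (SE 0.08, adjusted p = 0.00260), N_28 against control one of 0.31 (SE 0.08, adjusted p = 0.0169) and N_30 against control one of -0.08 (SE 0.08, adjusted p = 0.749). The difference between N_30 and N_28 held in all 17 alternatives, at -0.44 to -0.33. The rise against control held without library 3 (0.30, adjusted p = 0.0166) and lost its call without N_28 library 1 or 2 or control library 1 or 3, at adjusted p-values up to 0.0801.

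Other genes on the chromosome of SLC7A1 moved the same way. The median log2 change of 165 chromosome 13 genes of at least 5 CPM was -0.26 in N_30 against N_28, where 78 passed as lower and 4 as higher, and 0.17 in N_28 against control, where 32 rose and 5 fell. Over 25 genes within 5 Mb of SLC7A1 the medians were -0.33 and 0.23, with SLC7A1 itself at -0.39 and 0.31. All such genes together had medians of -0.0008 and 0.00019. The part of the chromosome in the result for SLC7A1 was not tested. Of the 10680 genes searched for likeness to SLC7A1, 165 lie on chromosome 13. The closest in pattern were the glycosyltransferase gene DPY19L3 on chromosome 19 (root mean square log2 difference 0.0316), the myosin MYO5C on chromosome 15 (0.0407) and PRR5L, a partner of mTORC2, on chromosome 11 (0.0467).

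SLC1A5 (ENSG00000105281, chromosome 19, 46774883 to 46788594, minus strand), the glutamine exchanger also called ASCT2, had 353, 398 and 308 CPM in N_30 libraries. The N_28 libraries had 477, 386 and 368 CPM, and the control libraries 344, 367 and 309.9 CPM. Each N_28 library lay just above each control library, while N_30 overlapped both other groups. In edgeR, N_30 against N_28 gave a log2 fold change of -0.22 (SE 0.11, adjusted p = 0.179), N_28 against control one of 0.27 (SE 0.11, adjusted p = 0.131) and N_30 against control one of 0.05 (SE 0.11, adjusted p = 0.910). N_28 library 1 is the highest value, and without it the change in N_28 against control was 0.15 (adjusted p = 0.474). Within 5 Mb of SLC1A5, 149 genes had a median of -0.17 in N_30 against N_28 and 0.12 in N_28 against control; its part in these values was not tested.

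SLC1A4 (ENSG00000115902, chromosome 2, 64988477 to 65023865, plus strand), an exchanger of serine, alanine and other small neutral amino acids, had 91.4, 96.1 and 69.8 CPM in N_30 libraries. N_28 libraries had 85.6, 75.2 and 67.6 CPM, and control libraries 86.8, 87.3 and 69.6 CPM. The groups overlapped, and the log2 fold changes were 0.17 in N_30 against N_28 (SE 0.12, adjusted p = 0.369), 0.08 in N_30 against control (SE 0.12, adjusted p = 0.880) and -0.09 in N_28 against control (SE 0.12, adjusted p = 0.706). In N_28 against control and in N_30 against N_28, the uncalled changes of SLC1A5 and SLC1A4 had opposite signs. Their ratio therefore differed more than either gene. This ratio was not among those planned, and the exact p-values are not adjusted for the number of ratios compared. Per length, it averaged 3.11 ± 0.10 in N_30, 3.49 ± 0.06 in N_28 and 3.13 ± 0.08 in control on the log2 scale (SD, n = 3 each). All 3 N_28 libraries lay above the other 6 in this ratio, by 0.36 over control (exact two-sided permutation p = 0.1, the smallest possible), and N_30 lay 0.38 below N_28 (-0.38, exact p = 0.1).

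SLC38A2 (ENSG00000134294, chromosome 12, 46358189 to 46372867, minus strand), also called SNAT2, a sodium-coupled importer of glutamine and alanine, was lower in N_30 than in N_28. It had 354, 342 and 351 CPM in N_30 libraries, 385, 398 and 402 CPM in N_28 libraries and 394, 412 and 386 CPM in control libraries. All 3 N_30 libraries lay below the other 6, and N_28 overlapped control. In edgeR, N_30 against N_28 gave a log2 fold change of -0.18 (SE 0.05, adjusted p = 0.0270), N_30 against control one of -0.19 (SE 0.05, adjusted p = 0.133) and N_28 against control one of -0.01 (SE 0.05, adjusted p = 0.944). DESeq2's Wald test called the change in N_30 against control, at an adjusted p = 0.0404. The call in N_30 against N_28 was lost without library 3 (log2 change -0.17, adjusted p = 0.139), and also without any of the N_28 libraries or without N_30 library 2 or 3, and over all 17 alternatives the log2 change was -0.20 to -0.16. Its closest genes in pattern were the nucleoporin NUP85 (root mean square log2 difference 0.0302), the importin IPO9 (0.0348) and the replication factor WDHD1 (0.0377).

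SLC38A1 (ENSG00000111371, chromosome 12, 46183063 to 46270017, minus strand), the glutamine importer SNAT1, had the narrowest range of the 9, its highest library 1.19 times its lowest (1.20 for SLC38A2). Within groups SLC38A2 varied less. Its coefficients of variation were 1.78% in N_30, 2.19% in N_28 and 3.25% in control, against 3.16%, 3.54% and 6.35% for SLC38A1. SLC38A1 had 337, 343 and 323 CPM in N_30 libraries, 362, 351 and 338 CPM in N_28 libraries and 339, 385 and 362 CPM in control libraries. All groups overlapped, and no comparison passed: the log2 fold changes were -0.07 in N_30 against N_28 (adjusted p = 0.477), -0.11 in N_30 against control (adjusted p = 0.497) and -0.05 in N_28 against control (adjusted p = 0.704), each with an SE of 0.06. SLC38A1 and SLC38A2 lie next to each other on chromosome 12, and over the 9 libraries they differed by a root mean square of 0.0749 on the log2 scale, the smallest distance between members after SLC7A5 and SLC3A2. The log2 ratio of SLC38A2 to SLC38A1 per length was 0.66 ± 0.06 in N_30, 0.78 ± 0.08 in N_28 and 0.74 ± 0.07 in control, and the groups overlapped (exact p = 0.2 for N_30 against N_28).

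Library 3 carried a pattern of its own in these genes. SLC7A1, SLC7A11, SLC3A2, SLC1A4 and SLC1A5, 5 of the 9, were lowest in library 3 of all 3 groups, which was so for 9.27% of the 15019 tested genes, and 0 of 9 were highest there in all 3 (8.62% of all genes). SLC7A11 was the furthest, at -0.96, -0.79 and -0.63 on the log2 scale against the mean of libraries 1 and 2 in N_30, N_28 and control. SLC1A4 stood at -0.43, -0.25 and -0.32, and SLC1A5 at -0.29, -0.23 and -0.20, in the same order of groups. Among 30 tested genes of the ATF4 pathway, 9 were lowest in library 3 of every group, among them the transcription factor ATF3 (-1.22, -0.58 and -1.11), the secreted stress factor GDF15 (-0.66, -0.56 and -0.62), STC2 (-0.72, -0.42 and -0.50) and TRIB3 (-0.40, -0.48 and -0.28). Of 20 cytosolic aminoacyl-tRNA synthetase genes, which load amino acids onto tRNAs, 5 were (AARS1, GARS1, SARS1, TARS1 and WARS1). So were 4 of 12 tested transporters of other families and 4 of 24 tested genes of amino acid sensing by mTORC1, but 0 of 9 MYC network genes. ATF4 itself was not lowest there in all 3 groups, and 2 of the 30 ATF4 pathway genes were highest in library 3 of every group. The labels do not say what library 3 shares across groups, and these genes were picked out after their values were seen.

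**Figure D4:**
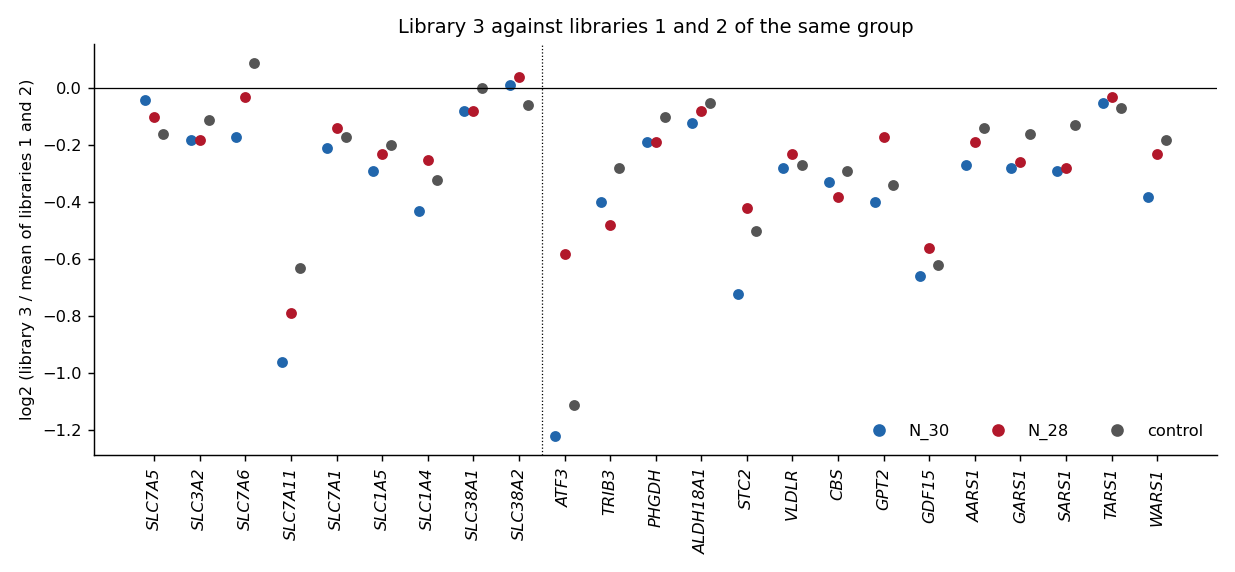
Log2 ratio of library 3 to the mean of libraries 1 and 2 of the same group (vertical axis) for the 9 transporters (left of the dotted line) and for the genes of the ATF4 pathway and of aminoacyl-tRNA synthetases that were lowest in library 3 of all 3 groups (right). SLC7A11 lies between -0.96 and -0.63, and SLC38A2 between -0.06 and 0.04.

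Most other amino acid transporters did not pass against control. Of 20 tested, 0 rose and 3 fell in N_28 against control, where 4.49% of all tested genes rose and 5.75% fell, with a median log2 change of -0.20 against -0.0015 over all tested genes. These were the glycine carrier SLC6A9 (18.1 ± 1.89 CPM in N_28, 27.0 ± 1.20 CPM in control, log2 change -0.57, adjusted p = 0.00101), the lysosomal exporter of cationic amino acids SLC66A1 (-0.27, adjusted p = 0.0149) and the lysosomal glutamine exporter SLC38A7 (-0.30, adjusted p = 0.0488). In N_30 against N_28, 6 of 20 rose and 1 fell, where 9.38% of all tested genes rose and 8.96% fell, with a median of 0.16 against 0.002 over all tested genes. The 6 were SLC6A9 (0.71), SLC38A7 (0.53), the lysosomal cystine exporter CTNS (0.46), the lysosomal arginine sensor SLC38A9 (0.39), the leucine carrier SLC43A1 (0.32) and SLC66A1 (0.27), at adjusted p-values up to 0.0354. SLC38A4, a carrier of small neutral amino acids, fell in N_30: it averaged 4.14 ± 0.557 CPM in N_30, 6.53 ± 1.69 CPM in N_28 and 8.11 ± 0.560 CPM in control, a log2 change of -0.97 (SE 0.18, adjusted p = 0.0183) against control. DESeq2 called 0 higher and 4 lower in N_28 against control. With library 3 left out, the counts were 1 higher (SLC43A2) and 1 lower (SLC6A9) in N_28 against control, 5 higher and 1 lower in N_30 against N_28, and 0 in N_30 against control. SLC66A1 (adjusted p = 0.053) and SLC38A7 (adjusted p = 0.0808) then lost their calls in N_28 against control, SLC43A1 (adjusted p = 0.0769) lost its call in N_30 against N_28, and SLC38A4 lost its calls in N_30 against control (-0.92, adjusted p = 0.0782) and against N_28 (-0.55, adjusted p = 0.136).

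**Figure D5:**
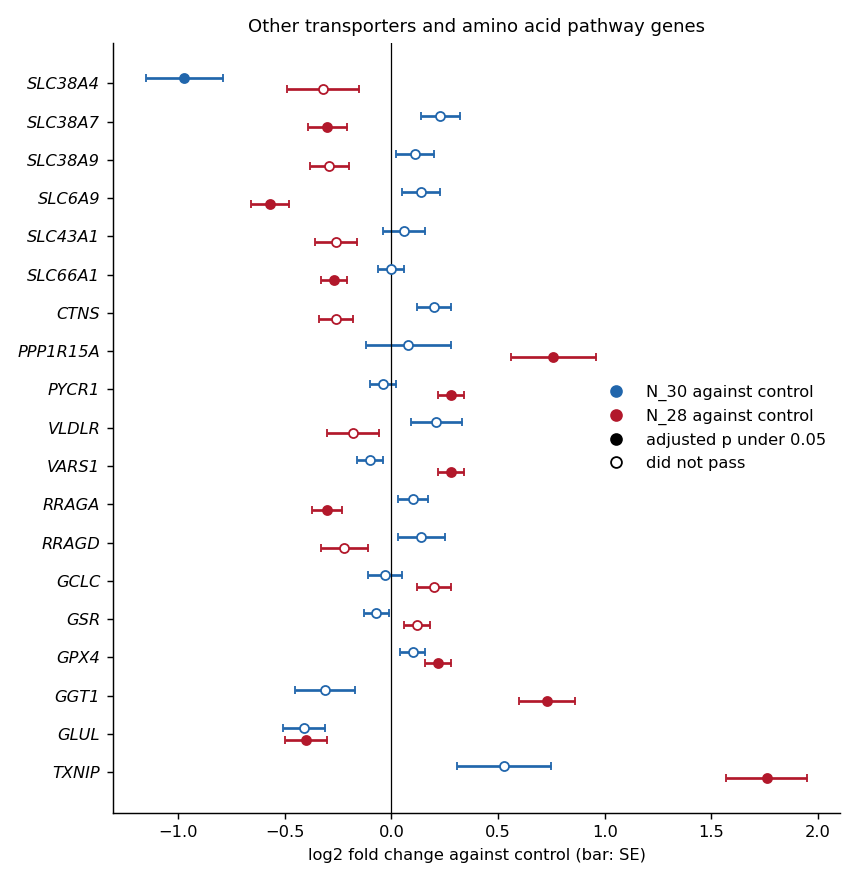
Log2 fold change against control (horizontal axis, bars of 1 SE) in N_30 and N_28 of those other transporters and amino acid pathway genes that passed in N_28 against control, N_30 against control or N_30 against N_28; filled points have an adjusted p under 0.05 in that comparison. TXNIP in N_28 reaches 1.76, and SLC38A4 at -0.97 is the filled point of N_30.

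Of 110 tested genes in 7 lists, 8 passed in N_28 against control, where 10.2% of all tested genes did, and 10 passed in N_30 against N_28, where 18.3% of all did. By direction, 4.49% of all tested genes rose and 5.75% fell in N_28 against control. In N_30 against N_28, 9.38% rose and 8.96% fell. In N_30 against control 0 of 110 passed by edgeR, 8 had an unadjusted p under 0.05, and DESeq2 called 1 (GLUL). With library number as a block, GDF15 and CEBPB rose and GLUL fell in N_30 against control.

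In the ATF4 pathway, 2 of 30 tested genes rose in N_28 against control and 0 fell, where 4.49% of all tested genes rose and 5.75% fell. The list median was 0.05 on the log2 scale against -0.0015 over all tested genes. PPP1R15A, which recruits a phosphatase to eIF2alpha, averaged 231 ± 57.9 CPM in N_28 and 136 ± 26.9 CPM in control (SD, n = 3 each), a log2 change of 0.76 (SE 0.20, adjusted p = 0.0247). PYCR1, an enzyme of proline synthesis, changed by 0.28 (SE 0.06, adjusted p = 0.00955). ATF4 itself did not pass: it averaged 331 ± 27.2 CPM in N_30, 324 ± 25.2 CPM in N_28 and 333 ± 40.1 CPM in control. Its partner DDIT3 (CHOP) averaged 8.90 ± 1.45 CPM in N_30, 9.38 ± 1.51 CPM in N_28 and 6.59 ± 0.796 CPM in control, and its log2 change of 0.51 in N_28 had an adjusted p = 0.0517 by edgeR, 0.0295 by DESeq2 and 0.027 by edgeR without library 3. In N_30 against N_28 the lipoprotein receptor VLDLR rose (0.39, adjusted p = 0.0359), and PPP1R15A (-0.68, adjusted p = 0.0277) and PYCR1 (-0.32, adjusted p = 0.00289) fell. DESeq2 did not call PPP1R15A in N_28 against control (adjusted p = 0.0543) or in N_30 against N_28 (adjusted p = 0.0724), and edgeR without library 3 called it in both.

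VARS1, the valyl-tRNA synthetase, was the 1 of 20 cytosolic synthetase genes that rose in N_28 against control (0.28, adjusted p = 0.00615), where 4.49% of all tested genes rose. It was lower in N_30 than in N_28 (-0.37, adjusted p = 0.000469). Of 24 tested genes of amino acid sensing by the kinase complex mTORC1, 1 fell in N_28 against control, where 5.75% of all tested genes fell. This was RRAGA, a small GTPase that recruits mTORC1 to the lysosome. It averaged 52.3 ± 0.686 CPM in N_28 and 64.1 ± 4.07 CPM in control, a log2 change of -0.30 (SE 0.07, adjusted p = 0.0104). In N_30 against N_28, RRAGA (0.39, adjusted p = 0.000955) and its relative RRAGD (0.37, adjusted p = 0.0369) rose. MTOR stood at 119.6 ± 1.78 CPM in N_30, 116 ± 0.367 CPM in N_28 and 119 ± 6.35 CPM in control and did not pass.

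Among 10 genes of cystine use and glutathione synthesis, which work on what SLC7A11 brings in, 2 rose in N_28 against control. Over all tested genes 4.49% rose there. GGT1, which splits extracellular glutathione, averaged 8.67 ± 1.53 CPM in N_30, 17.7 ± 1.18 CPM in N_28 and 10.7 ± 1.72 CPM in control, a log2 change of 0.73 (SE 0.13, adjusted p = 0.00262) in N_28 against control and of -1.04 (SE 0.14, adjusted p = 0.000131) in N_30 against N_28. GPX4, the glutathione peroxidase that reduces lipid peroxides, rose by 0.22 in N_28 (SE 0.06, adjusted p = 0.0315), a call lost without library 3 (0.19, adjusted p = 0.165). In N_30 against N_28, GCLC (-0.24, adjusted p = 0.0454), which starts glutathione synthesis, and the glutathione reductase GSR (-0.19, adjusted p = 0.0416) also fell. Without library 3 both calls were lost, at -0.25 (adjusted p = 0.114) for GCLC and -0.21 (adjusted p = 0.083) for GSR, and GGT1 was called in both comparisons. NFE2L2, the factor that binds the antioxidant response element, did not pass, at 52.0 ± 2.63 CPM in N_30, 57.0 ± 0.345 CPM in N_28 and 51.3 ± 4.59 CPM in control.

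GLUL, the glutamine synthetase, averaged 76.6 ± 3.28 CPM in N_30, 77.3 ± 12.3 CPM in N_28 and 102 ± 11.2 CPM in control (SD, n = 3 each), and fell in N_28 (-0.40, SE 0.10, adjusted p = 0.0217). Its log2 change in N_30 against control was -0.41 (SE 0.10, adjusted p = 0.0836), which did not pass in edgeR without a block, and for the averaged knock-downs it was -0.41 (SE 0.09, adjusted p = 0.0292). It was the 1 of 8 genes counted for glutamine metabolism that passed in N_28 against control, where 10.2% of all tested genes passed.

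Of 9 genes of the MYC network, which include known regulators of SLC7A5 and SLC1A5, 0 passed by edgeR or DESeq2 in either knock-down against control, and 1 in N_28 and 0 in N_30 had an unadjusted p under 0.05. MYC averaged 302 ± 32.5 CPM in N_30, 303 ± 24.9 CPM in N_28 and 309 ± 21.7 CPM in control. Over all tested genes, edgeR called 10.2% in N_28 and 0.866% in N_30 against control. Of 9 genes of transporter turnover and trafficking, TXNIP rose in N_28 against control, where 4.49% of all tested genes rose. TXNIP, an arrestin-like protein that lowers glucose uptake, averaged 1.57 ± 0.251 CPM in N_30, 3.71 ± 0.162 CPM in N_28 and 1.10 ± 0.121 CPM in control, a log2 change of 1.76 (SE 0.19, adjusted p = 6.43e-05) in N_28. NEDD4L, a ubiquitin ligase that acts on membrane carriers, did not pass, at 107 ± 6.75 CPM in N_30, 119.8 ± 2.70 CPM in N_28 and 115 ± 1.35 CPM in control.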

How the data were processed

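The authors' deposited file gives raw read counts for each gene, as whole numbers in 9 columns under human Ensembl identifiers. How reads were aligned, counted and assigned to strands, and with which annotation, is not stated in the sources at hand. The build named per the submitters' processing notes is mm8, a mouse build. Symbols were matched for 56434 rows from a gene name table and for 434 more from GENCODE 29; the other 3580 stayed unnamed. The members, lists and tests were chosen with earlier results of these data known.

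Genes were kept by filterByExpr at a minimum count of 10. TMM scaling and a quasi-likelihood fit (edgeR 4.0.16 in R 4.3.3) used all 9 libraries with 3 group terms and no block, Benjamini-Hochberg adjustment over 15019 genes and a threshold of 0.05. Each SE was derived from the fold change and its test statistic. DESeq2 1.42.0 served as an alternative. The edgeR step was tested on simulated counts with known changes larger than those of the members and the same dispersion for all genes. It does not show how changes of the members' size are called. Levels are CPM, or RPKM over merged GENCODE exons, and ratios were compared by exact permutation tests. The common biological coefficient of variation was 0.0783. In the smallest library 3 counts correspond to 0.182 CPM, a floor for counting error only. No library was a copy of another: the chi-square per gene between libraries of a group was 3.57 to 12.4.

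Same-numbered libraries of N_30 and control had deviations from their group means that correlated at 0.122, 0.169 and 0.306, so these numbers are read as pairing them, on the evidence of the data alone; calls with the block were already known. The values were -0.0588, 0.0358 and 0.142 for N_28 and control, and 0.0268, -0.0253 and 0.235 for N_30 and N_28. Over genes of at least 5 CPM the values were 0.158, 0.429 and 0.562 for N_30 and control. They were -0.0791, 0.232 and 0.312 for N_28 and control, and 0.104, 0.0356 and 0.506 for N_30 and N_28. Which groups the numbers pair thus depends on the genes used. The block was fitted over all 9 libraries, N_28 included.

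Named genes were the 9 members, OPA1, up to 4 called genes of each list by lowest adjusted p, up to 2 well-known genes of a list that did not pass and, for each called member, the 3 genes of at least 5 CPM with the smallest root mean square difference of centred log2 CPM. Genes named for library 3, or for calls by another fit, were chosen after their values were seen. Leaving library 3 out was an alternative added after seeing the data. 1 gene of the lists is not reported here and is left out of their counts. Motifs were searched on both strands of RefSeq windows.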

Additional observations from a re-analysis of the deposited data

Results flagged for a closer look

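5 of the transporters differed between the knock-downs by a test of the difference itself, N_30 minus N_28 in edgeR's quasi-likelihood model of all 9 libraries, in which the control libraries cancel. SLC7A1 differed by -0.39 on the log2 scale (adjusted p = 0.0026), with all 3 N_30 libraries below all 3 N_28 libraries. SLC7A6 differed by 0.28 (adjusted p = 0.00881) and SLC7A5 by 0.24 (adjusted p = 0.0403), in each case with the 3 N_30 libraries above the 3 N_28 libraries. SLC3A2 differed by 0.27 (adjusted p = 0.0361), with N_30 library 3 at 494 CPM below N_28 library 1 at 504 CPM. SLC38A2 differed by -0.18 (adjusted p = 0.027), with all 3 N_30 libraries below all 3 N_28 libraries. Among all 15019 tested genes 18.3% passed in this comparison. The calls of SLC7A1 and SLC7A6 held in all 17 alternatives. SLC7A5 and SLC3A2 each lost the call in 5 of 17 and SLC38A2 in 6 of 17, in each case also without library 3. Groups of 3 libraries were not searched for single outlying libraries.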

How the results depend on the processing

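For 36 log2 changes (9 members in 4 comparisons), 540 alternative values kept direction and side of the threshold, 27 lost a call, 10 gained one and 26 changed sign. With a library left out, genes called numbered 967 to 1712 in N_28 against control (1538 with all), 58 to 180 in N_30 against control (130) and 134 to 322 when the knock-downs were averaged (268). DESeq2 called 267 in N_30 and 408 in the average, no filter on low counts 523 and 705, and the replicate block 424 and 616. Members called in N_28 against control were 2, which became 0 to 2 with a library left out, 4 with no filter and 1 without library 3; with the block SLC1A5 was called too (adjusted p = 0.0158), as it was in N_30 against N_28 (adjusted p = 0.0333). Members called in N_30 against N_28 were 5, which became 2 to 5 with a library left out and 2 without library 3. In N_30 against control DESeq2 called 1, no filter 2 and the block 1, against 0. Otherwise the block changed no member's call. Of the 20 other transporters the block called 1 higher and 7 lower in N_28 against control, against 0 and 3, and of the 30 ATF4 pathway genes 4 higher, against 2. The fit of only the groups compared is the fit of all 9 libraries for the averaged knock-downs. Over longest transcripts, control log2 ratios to SLC3A2 were 0.71 for SLC7A5, -4.09 for SLC7A6 and -5.78 for SLC7A11. The cause of these shifts was not tested, except that the last follow from the shorter length of SLC3A2.

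Changes that turned sign were uncalled. SLC3A2 in N_28 against control turned to 0.02 without library 3 and 0.0005 with no filter, and SLC7A11 in N_30 against control to 0.06 without library 3. With a library left out, N_28 against control ran from -0.10 to 0.06 for SLC3A2, -0.11 to 0.04 for SLC7A5, -0.03 to 0.02 for SLC38A2 and -0.13 to 0.62 for SLC7A11. N_30 against control ran from -0.02 to 0.21 for SLC1A4, -0.04 to 0.14 for SLC1A5, -0.003 to 0.10 for SLC7A6 and -0.21 to 0.31 for SLC7A11. N_30 against N_28 ran from -0.54 to 0.10 for SLC7A11. The averaged knock-downs ran from -0.11 to 0.06 for SLC1A4 and -0.07 to 0.47 for SLC7A11. SLC7A11 had 499 to 1396 counts per library.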
